A study of Mus musculus with 18 samples.

Results

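The HoxC and HoxD genes examined here are Hoxc4, Hoxc5, Hoxc6 and Hoxc9 of the HoxC cluster on mouse chromosome 15, and Hoxd4, Hoxd8, Hoxd9 and Hoxd13 of the HoxD cluster on chromosome 2. They were taken as every probe whose deposited gene name is one of these symbols, which gave 10 probes for 8 genes, out of 41109 probes and 19701 named genes with a value on all 18 arrays. Hoxd9 and Hoxd13 had 2 probes each and the other genes 1. RNA from C57BL/6 mouse cells was measured on one-colour microarrays in 6 groups of 3. Mouse embryonic fibroblasts (MEFs) and hepatocyte-like cells induced from MEFs (iHep cells) are marked by the submitters as re-analysed arrays. Budding organoids, which are intestinal epithelial cultures with crypt-like outgrowths, came either from induced intestinal stem cells (named iISC organoids) or from crypts of adult intestine (crypt organoids). Mixtures of spherical and budding organoids came from fetal intestinal progenitor cells that were induced (iFIPC organoids) or taken from fetal intestine (FI organoids). The titles of the 3 iHep arrays carry different codes, which the labels do not explain, so whether the arrays are replicates of one induction is not stated. The labels used here give no animal ages, no named inducing factors and no number of animals or clones, and they do not say whether the MEFs are the cells from which the induced organoids were made. Nothing in them says that the arrays of a group came from separate animals or cultures, so the p-values below measure only the spread between these samples.

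Hox genes encode homeodomain transcription factors that tell cells their position along the body axis. In each cluster the genes are expressed in the order in which they lie on the chromosome: those at the 3′ end, such as Hoxc4 and Hoxd4, reach far forward, and those at the 5′ end, such as Hoxd13, are restricted to the posterior trunk, the distal limb, the genital tubercle and the end of the gut. Fibroblasts keep the Hox code of the body site they came from. In the gut, Hox genes are known mostly for their regional expression in the mesenchyme, and in the epithelium HoxD genes of the posterior groups mark the hindgut. Polycomb complexes hold Hox clusters silent outside their domain, and PBX and MEIS proteins bind DNA together with Hox proteins.

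Both Hoxd9 and Hoxd13 were measured by a probe in the homeobox, the conserved stretch that encodes the DNA-binding domain, and by another probe further 3′ in the transcript. The 2 homeobox probes are shown because the probes of Hoxd9 gave different levels in the iISC organoids.
Hoxd9 homeobox probe: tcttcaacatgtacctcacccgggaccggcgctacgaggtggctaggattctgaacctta
Hoxd13 homeobox probe: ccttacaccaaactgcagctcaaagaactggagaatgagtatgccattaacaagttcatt
The Hoxd9 probe starts at base 1167 of its transcript (mm9, chr2:74537333-74537392) and its second probe at base 1510 (chr2:74537676-74537735). For Hoxd13 the homeobox probe starts at base 831 (chr2:74508005-74508064) and the second at base 2074 (chr2:74509248-74509307). The other HoxD probes lie at chr2:74566866-74566925 (Hoxd4) and chr2:74545021-74545080 (Hoxd8). Those of HoxC lie at chr15:102866541-102866583 (Hoxc4), chr15:102846969-102847028 (Hoxc5), chr15:102842032-102842093 (Hoxc6) and chr15:102814735-102814794 (Hoxc9), all on mm9 as the organoid files print them. The interval given for Hoxc4 spans 43 bases, although the probe has 60. Exon and UTR annotation of mm9 was not used here.

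Promoters in RefSeq's table for GRCm38.p6 were matched for 5 of the 8 genes. Windows of 250 bases before the start are shown for 3 HoxD genes: Hoxd4 and Hoxd8, whose levels ran closest together in these samples, and Hoxd13, whose levels ran differently. Capitals mark CG dinucleotides.
Hoxd13 (chr2:74667975-74668224, + strand): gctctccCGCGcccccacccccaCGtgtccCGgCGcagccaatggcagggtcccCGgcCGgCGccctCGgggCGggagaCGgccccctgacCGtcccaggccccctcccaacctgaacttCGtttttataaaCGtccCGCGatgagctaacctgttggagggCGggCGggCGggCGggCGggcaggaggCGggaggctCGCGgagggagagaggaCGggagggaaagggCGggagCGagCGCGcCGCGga
Hoxd8 (chr2:74704365-74704614, + strand): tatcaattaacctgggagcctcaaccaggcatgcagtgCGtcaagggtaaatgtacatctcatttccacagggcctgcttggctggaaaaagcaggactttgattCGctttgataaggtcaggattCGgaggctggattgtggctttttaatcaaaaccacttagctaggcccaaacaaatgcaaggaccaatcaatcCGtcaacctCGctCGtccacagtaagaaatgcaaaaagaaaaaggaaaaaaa
Hoxd4 (chr2:74721728-74721977, + strand): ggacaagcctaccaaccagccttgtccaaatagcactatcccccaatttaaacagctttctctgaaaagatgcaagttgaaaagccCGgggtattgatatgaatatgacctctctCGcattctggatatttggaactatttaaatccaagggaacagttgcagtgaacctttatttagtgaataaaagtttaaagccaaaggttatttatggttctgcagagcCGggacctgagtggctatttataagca
The Hoxd13 window holds 31 CG dinucleotides, that of Hoxd8 holds 6 and that of Hoxd4 holds 3, where the median of all 32851 promoter windows of this length was 6. In the 2 windows not printed there were 13 (Hoxd9) and 8 (Hoxc4). TTTATNG, a word bound by posterior Hox and CDX proteins and searched on both strands, occurred in the Hoxd4 window and in none of the other 4, and 9.81% of all windows held it. TGATTNAT (the PBX-HOX word, in 2.82% of all windows) and TGACAG (the MEIS word, in 15.86%) were in none of the 5.

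Levels are log2 of the processed signal minus the 75th percentile of the gene probes on the same array, so that a level of 0 means as bright as that percentile. Levels of different probes are not read as different amounts of RNA. Where a gene has several probes, they are compared in brightness and in their pattern over the groups. Agilent's flag "well above background" was raised for 56.15 to 68.67% of gene probes per array, and the lowest level that carried it lay between -7.10 and -5.73. Values under that are near background and have no reliable order. MEF arrays 2 and 3, which share a slide, differed by no more than single-spot noise over most probes (a robust spread of 0.073 on the log2 scale, where spot noise alone gives 0.0915) and were averaged to 1 sample, so MEFs have n = 2 and all other groups n = 3. With 3 samples against 3 an exact two-sided permutation test cannot go below p = 0.1, and with 3 against 2 not below 0.2, so tests come from limma fits over all genes, with Benjamini-Hochberg adjusted p-values and standard errors (SE). Genes entered a test where at least 1 compared group had the probe well above background throughout. A call needed an adjusted p below 0.05 together with a log2 change of 1 or more in size. All MEF and iHep arrays were scanned on one scanner model and all organoid arrays on another. The 7 spike-in controls with a usable signal sat 0.52 to 1.201 higher on MEF and iHep arrays (median 0.91), so for changes of this size between these array sets the source cannot be told apart from the array set. No slide held MEFs with organoids, iISC with crypt organoids, or iFIPC with FI organoids.

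Markers of other cell types were checked beside the labels. All 7 epithelial markers, Cdx2 and Epcam among them, were well above background on every organoid and iHep array, and 3 of 7 on each MEF array. Of 10 fibroblast markers, all 10 were well above background on each MEF and iHep array, 3 to 5 in iISC organoids, 3 in crypt organoids, 3 to 5 in FI organoids and 7 to 10 in iFIPC organoids. Of 5 hepatocyte markers, none was well above background on a MEF array and all 5 were on each iHep array. In the organoids 3 to 5 of them were so in iISC, 4 in crypt, 3 to 4 in iFIPC and 3 to 4 in FI organoids. Apoa1, Hnf4a and Ttr were called higher than in MEFs in each of the 4 organoid groups. The fibroblast markers had a summed level (log2 of the summed signal) of 9.68 to 9.82 in MEFs and of 5.82 to 7.41 in iHep cells, against -1.39 to -0.84 in iISC, -1.92 to -0.62 in crypt, -0.62 to 2.09 in iFIPC and -2.81 to 0.29 in FI organoids. Pdgfra was not well above background on any iISC, crypt or FI array, and among iFIPC arrays it was so on iFIPC 2 only. Of 3 endothelial markers, Kdr alone was well above background on MEF arrays, and none was on any iHep or organoid array. All 4 smooth muscle markers, and Ptprc and Cd52 among the 4 immune and blood markers, were lower than in MEFs in iHep cells and in each of the 4 organoid groups. Lyz2, another immune marker, was lower in iHep cells only and was well above background on every organoid array. Cd52 was so on no organoid array, and Ptprc on iFIPC 1 and iFIPC 3 only. On the iISC arrays Lyz2 was the only marker of the 4 to be so. The organoid sums that follow are therefore not read as amounts of immune cells. The summed level of the immune and blood markers was 6.03 to 6.68 in MEFs. It was 6.98 to 7.29 in iISC, 7.20 to 7.31 in crypt, 6.98 to 7.22 in iFIPC and 5.73 to 7.10 in FI organoids. The part of such cells in the MEF levels of the Hox genes was not tested. In bulk RNA like this, fewer cells of a type and less RNA per cell cannot be told apart.

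All 8 genes were well above background in MEFs and in iFIPC organoids, whereas the other organoids held fewer. On each MEF array and each iFIPC array 8 of 8 genes reached that mark. The iHep arrays had 7, 8 and 7 of 8 (arrays 1, 2 and 3). Among iISC organoids the counts were 3, 6 and 4, in crypt organoids 2, 2 and 2, and in FI organoids 5, 3 and 2. Only Hoxc4 and Hoxc5 were well above background on all 12 organoid arrays.

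**Figure D1:**
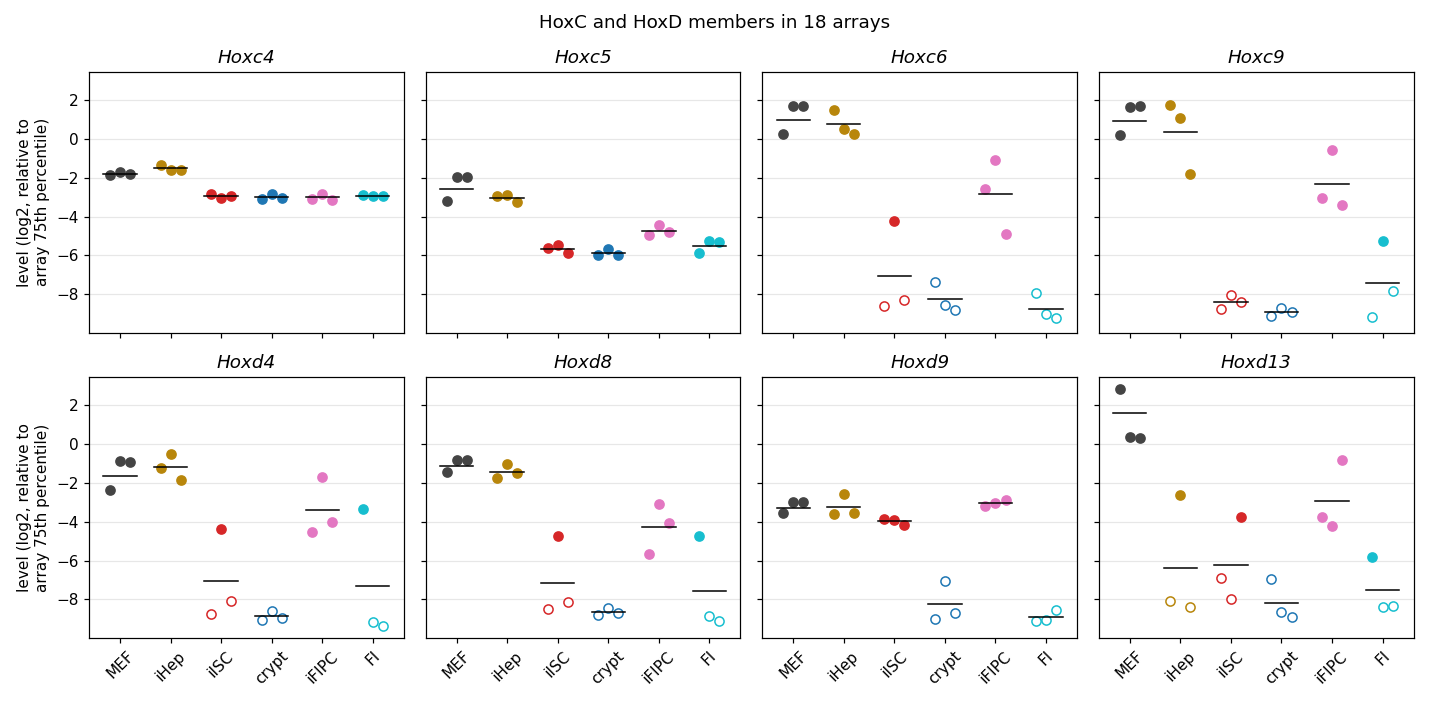
Level of each gene (log2, relative to the 75th percentile of the array) in the 6 groups, with 1 point per array (replicates 1 to 3 from left to right), filled where the probe was well above background and open where it was not. Lines are group means, with MEF 2 and 3 counted as 1 sample, and the brighter probe is plotted for Hoxd9 and Hoxd13. iFIPC organoids are filled in every panel, while crypt organoids are open in every panel except Hoxc4 and Hoxc5.

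Hoxc4, the 3′-most gene of its cluster, had the flattest pattern of the 8. Its level was -1.83, -1.71 and -1.80 in MEF 1, 2 and 3, and -1.34, -1.60 and -1.60 in iHep 1, 2 and 3. In iISC organoids 1, 2 and 3 it was -2.84, -3.03 and -2.96, and in crypt organoids -3.08, -2.83 and -3.06. In iFIPC organoids 1, 2 and 3 it was -3.06, -2.82 and -3.15, and in FI organoids -2.87, -2.94 and -2.95. The order of the means was iHep, MEF and then the 4 organoid groups, whose ranges overlapped one another. Against MEFs, each organoid group was lower, with a log2 change of -1.19 ± 0.13 (SE) in crypt and -1.21 ± 0.13 in iFIPC organoids (adjusted p = 3.701e-06 and 4.377e-06). These changes are about as large as the highest shift of a spike-in control between the same sets of arrays, so the cells and the array set cannot be told apart as their source. With the authors' quantile-normalized values the crypt change was -0.89 and fell short of the size required.

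Hoxc5, its neighbour, stepped down in 2 stages. Its level was -3.21, -1.94 and -1.93 in MEF 1, 2 and 3 and -2.92, -2.88 and -3.25 in the iHep arrays. It was -5.62, -5.46 and -5.86 in iISC organoids and -5.96, -5.68 and -5.97 in crypt organoids, in replicate order. The iFIPC organoids read -4.94, -4.44 and -4.81 and the FI organoids -5.89, -5.27 and -5.31. All 12 organoid arrays lay below all 6 MEF and iHep arrays, and within the organoids the 3 iFIPC arrays lay above all 9 others. The change against MEFs ran from -3.30 ± 0.31 in crypt (adjusted p = 7.886e-07) to -2.15 ± 0.31 in iFIPC organoids (adjusted p = 5.449e-05), beyond the shift of the spike-in controls. iFIPC organoids stood 0.76 ± 0.20 above FI organoids (adjusted p = 0.02221), under the required change of 1. The means of FI, iISC and crypt organoids followed in that order, with overlapping ranges.

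Hoxc6, expressed from the level of the forelimb backwards, was bright in MEFs and iHep cells and split the organoids. MEF 1, 2 and 3 had levels of 0.25, 1.71 and 1.72, and iHep 1, 2 and 3 had 1.498, 0.53 and 0.24. The iISC organoids had -8.60, -4.22 and -8.30 and the crypt organoids -7.36, -8.54 and -8.81. In iFIPC organoids it was -2.59, -1.06 and -4.88, and in FI organoids -7.92, -9.04 and -9.24. Only iISC 2 among the iISC organoids was well above background, and no crypt or FI array was. The iFIPC mean of -2.84 ± 1.93 (SD, n = 3) lay between MEFs at 0.98 ± 1.03 (SD, n = 2) and the other organoids. MEF and iHep ranges overlapped, and the array iISC 2 fell inside the iFIPC range.

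Hoxc9, a gene of the posterior thorax, ran close to Hoxc6. Its level was 0.23, 1.66 and 1.70 in MEF 1, 2 and 3 and 1.78, 1.08 and -1.81 in iHep 1, 2 and 3. It was -8.78, -8.02 and -8.40 in iISC organoids and -9.09, -8.68 and -8.93 in crypt organoids. The iFIPC organoids had -3.01, -0.56 and -3.41 and the FI organoids -9.19, -5.24 and -7.82. iHep 3 was the lowest of the MEF and iHep arrays and lay within the iFIPC range. No iISC or crypt array was well above background, and of the FI organoids only FI 2 was. The 3 iFIPC arrays lay above the 9 other organoid arrays.

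Hoxd4 and Hoxd8, genes of the 3′ part of HoxD, moved together. Hoxd4 read -2.37, -0.85 and -0.93 in MEF 1, 2 and 3 and -1.22, -0.53 and -1.84 in iHep 1, 2 and 3. It read -8.77, -4.35 and -8.09 in iISC organoids and -9.08, -8.58 and -8.95 in crypt organoids. In iFIPC organoids its level was -4.54, -1.67 and -4.01, and in FI organoids -3.34, -9.15 and -9.37. A single array stood out in each of 2 groups: iISC 2 and FI 1 were well above background and the other iISC and FI arrays were not. Hoxd8 had levels of -1.45, -0.82 and -0.80 in MEF 1, 2 and 3, while iHep 1, 2 and 3 had -1.74, -1.01 and -1.500. Its levels were -8.50, -4.74 and -8.15 in iISC organoids and -8.80, -8.43 and -8.69 in crypt organoids. They were -5.65, -3.07 and -4.08 in iFIPC organoids and -4.71, -8.87 and -9.10 in FI organoids. The same pair of arrays, iISC 2 and FI 1, stood out for Hoxd8, and iFIPC 2 was the highest organoid array for both genes. For both, MEF and iHep ranges overlapped, and iFIPC organoids overlapped iISC and FI organoids through those 2 arrays only. RefSeq's Hoxd3 gene spans Hoxd4, and without the strand and transcript of each signal a share of Hoxd3 transcripts in the Hoxd4 level was not tested.

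HoxB genes, which lie in another cluster, were examined on the same arrays after their values were seen. Of 10 HoxB genes, iISC 2 was the highest iISC array for 7 and the only one well above background for 5. FI 1 was the highest FI array for 6 HoxB genes and the lowest for 1, Hoxb2. Hoxb7 had a level of 3.19 in iISC 2, against -8.75 in iISC 1 and -8.39 in iISC 3. In FI 1 it was 2.22, against -6.13 in FI 2 and 0.52 in FI 3. The labels do not set these arrays apart from the others of their group. The summed level of the fibroblast markers was 0.29 in FI 1, against -2.81 in FI 2 and -2.25 in FI 3, and 5 of the 10 markers were well above background there. In iISC 2 it was -1.11, between iISC 1 (-1.39) and iISC 3 (-0.84). The part of these markers' source in the Hox levels was not tested.

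Hoxd9, from the middle of HoxD, separated the induced from the other organoids, but only on its homeobox probe. That probe read -3.55, -2.96 and -3.00 in MEF 1, 2 and 3 and -3.60, -2.56 and -3.57 in iHep cells. It read -3.86, -3.89 and -4.18 in iISC organoids and -9.01, -7.05 and -8.69 in crypt organoids. The iFIPC organoids had -3.18, -3.04 and -2.86 and the FI organoids -9.11, -9.09 and -8.54. All 6 arrays of induced organoids were well above background and none of the 6 crypt and FI arrays was. On the second probe, the MEF levels were -3.13, -2.42 and -2.30 and the iHep levels -3.48, -2.40 and -2.99. There the iISC organoids had -8.51, -7.79 and -8.16 and the crypt organoids -8.85, -8.41 and -8.70. It read -7.00, -4.45 and -6.05 in iFIPC organoids and -8.95, -8.91 and -9.11 in FI organoids. The second probe was well above background on iFIPC 2 and iFIPC 3, and on no iISC, crypt or FI array. The probes therefore disagreed for iISC and iFIPC organoids and were alike in rank for MEFs and iHep cells (high) and crypt and FI organoids (background).

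Hoxd13, the 5′-most HoxD gene and a marker of the most posterior tissues, varied most among the MEFs and was the one gene low in iHep cells. Its brighter, second probe read 2.85, 0.39 and 0.34 in MEF 1, 2 and 3 and -8.08, -2.62 and -8.39 in iHep 1, 2 and 3. It read -6.90, -8.00 and -3.76 in iISC organoids and -6.97, -8.67 and -8.92 in crypt organoids. In iFIPC organoids it was -3.78, -4.21 and -0.82, and in FI organoids -5.83, -8.39 and -8.33. The arrays iHep 2, iISC 3 and FI 1 were each the only one of their group well above background. Here iFIPC 3 was the highest organoid array, whereas iFIPC 2 was the highest for Hoxc6, Hoxc9, Hoxd4 and Hoxd8. The homeobox probe was dimmer, at -0.54, -2.81 and -3.03 in MEFs and -8.22, -5.88 and -4.46 in iFIPC organoids. On it iFIPC 3 was the only array outside the MEFs that was well above background.

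**Figure D2:**
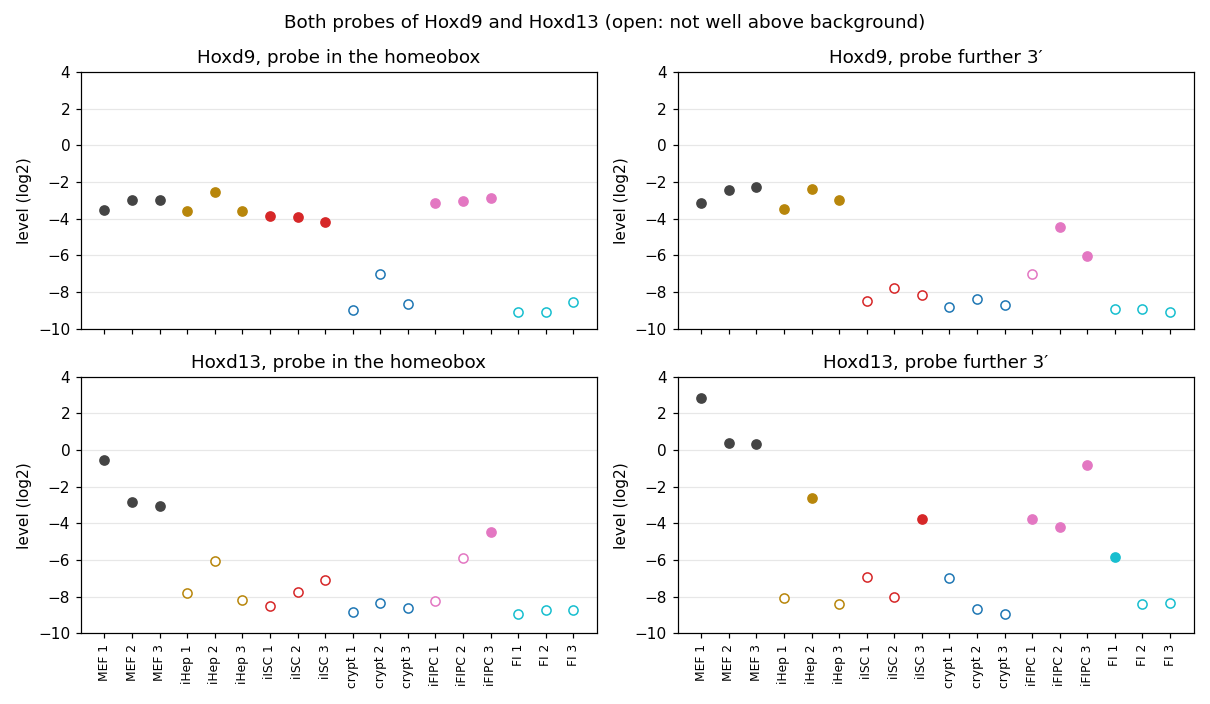
Level (log2, relative to the 75th percentile of the array) on each of the 18 arrays for both probes of Hoxd9 (upper row) and Hoxd13 (lower row), coloured by group, with open points not well above background. On the homeobox probe of Hoxd9 the iISC organoids sit between -4.18 and -3.86, and on the second probe between -8.51 and -7.79.

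Each kind of organoid was set against MEFs, to see which fibroblast Hox levels it shared. In crypt organoids all 8 genes were lower than in MEFs, where 26.1% of all tested genes were called lower. No crypt array was well above background for 6 of them, so the change is a bound: at least 301-fold for Hoxd13, 195-fold for Hoxc6, 192-fold for Hoxc9, 45.1-fold for Hoxd8, 31.9-fold for Hoxd4 and 10.3-fold for Hoxd9. In FI organoids all 8 were lower as well, where 23.8% of all tested genes were, with Hoxc6 at least 244-fold and Hoxd9 at least 12.9-fold lower. In both comparisons, genes not well above background throughout the organoids were tested through the MEFs alone, so the counts are not read as an excess. These bounds rest on 2 MEF samples. They were not adjusted for the spike-in controls, which sat higher on MEF and iHep arrays (median 0.91 on the log2 scale). Without MEF 1 the crypt bound was 126.9-fold for Hoxd13, 323.5-fold for Hoxc6, 316.8-fold for Hoxc9 and 53.2-fold for Hoxd4, and the FI bound for Hoxc6 was 404.8-fold. Without MEF 2 and 3 the crypt bound was 713.8-fold for Hoxd13, 117.9-fold for Hoxc6, 116-fold for Hoxc9 and 19.2-fold for Hoxd4, and the FI bound for Hoxc6 was 147.5-fold.

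In iISC organoids 7 of the 8 genes were lower than in MEFs (25.5% of all tested genes were called lower). Hoxc6, Hoxc9, Hoxd4, Hoxd8 and Hoxd13 were tested here through the MEFs alone. Hoxc9 was at least 135-fold lower (222.5-fold without MEF 1 and 81.5-fold without MEF 2 and 3). Hoxd9 was not called, at -0.72 ± 0.48 (adjusted p = 0.1949), but on its second probe, on which no iISC array was well above background, it was at least 10.4-fold lower (adjusted p = 1.758e-06). Fitted changes were -8.02 ± 1.24 for Hoxc6, -7.83 ± 1.75 for Hoxd13 and -5.44 ± 1.64 for Hoxd4, and the interval for Hoxd8 was -8.75 to -3.25, sizes that rest partly on levels at background.

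In iFIPC organoids, where every gene was well above background throughout, 6 of the 8 genes were called lower than in MEFs. Of all tested genes 23.3% were, and the median change of the 8 was -2.64 against -0.03 over all tested genes. The log2 change was -4.54 ± 1.75 for Hoxd13 (adjusted p = 0.03653), -3.83 ± 1.24 for Hoxc6 (0.01573), -3.28 ± 1.18 for Hoxc9 (0.02693) and -3.13 ± 1.27 for Hoxd8 (0.04515). Hoxd4 was not called at -1.78 ± 1.64 (adjusted p = 0.3592), nor was Hoxd9 at 0.24 ± 0.48 (0.6816). On the second probe Hoxd9 was lower, with a change of -3.09 (adjusted p = 0.0003026), so its call and direction depend on the probe. The count fell to 3 without iFIPC 1 and to 3 without iFIPC 3. All of these comparisons share the same MEF samples.

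iHep cells, which the labels give as made from MEFs, had 7 of the 8 genes at levels whose difference from MEFs was not called. Hoxd13 was the exception and was lower, with a log2 change of -7.97 ± 1.75 (adjusted p = 0.002485). In this comparison 15.9% of all tested genes were called lower, so 1 of 8 is near the background. Differences not called ran from -0.61 ± 1.18 for Hoxc9 to 0.43 ± 1.64 for Hoxd4, with intervals of -3.16 to 1.95 and -3.11 to 3.98 that leave room for sizeable changes. On slide 1, which held MEF 1 and all iHep arrays, Hoxd13 differed by -9.22, a size that rests partly on background, since only iHep 2 was well above it. Without MEF 1 Hoxc5 was called lower as well, at -1.08 (adjusted p = 0.01106). Of the 9 other HoxC and HoxD genes on the array, 5 were tested. Hoxd10 and Hoxd11, of the posterior part of the HoxD cluster, were lower, with changes of -3.18 ± 1.19 and -3.41 ± 1.18 (adjusted p = 0.04426 and 0.03135). Hoxd12, which lies between these genes and Hoxd13, was tested and not called, and no iHep array was well above background for it. RefSeq's Hoxd10 and Hoxd11 overlap, so their signals may not be independent.

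**Figure D3:**
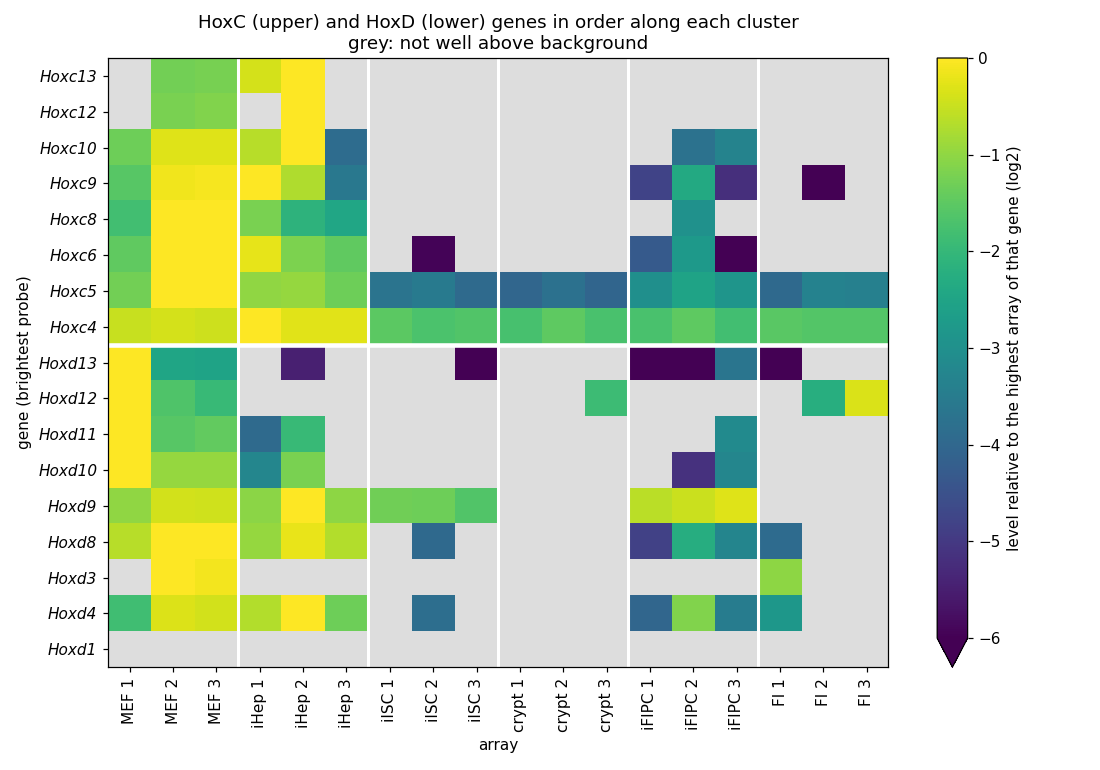
Level of each HoxC gene (upper rows) and HoxD gene (lower rows), in their order along the chromosome with the 5′ end of each cluster on top, on the 18 arrays. Colour gives the log2 level relative to the highest array of that gene, with everything below -6 in the darkest colour and grey where the probe was not well above background. Apart from Hoxc4, Hoxc5 and Hoxd9, coloured cells in the organoids are mostly in the iFIPC columns.

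The other HoxC and HoxD genes were mostly lower in organoids than in MEFs. Hoxc8, Hoxc10, Hoxd10 and Hoxd11 were lower in each of the 4 organoid groups (4 of 5 tested genes). Of all tested genes, 25.5% were called lower in iISC, 26.1% in crypt, 23.3% in iFIPC and 23.8% in FI organoids. The 4 genes were tested through the MEFs alone, so the count is not read as an excess. None of the 9 genes on the array passed the filter for a test between organoid groups. In crypt organoids Hoxd10 was at least 47.4-fold lower, Hoxc10 18.6-fold, and Hoxd11 15.9-fold (9.51-fold without MEF 1 and 26.8-fold without MEF 2 and 3). Some organoid arrays were well above background for single genes. Hoxc10 and Hoxd10 were so on iFIPC 2 and iFIPC 3, and Hoxc8 and Hoxd11 on 1 iFIPC array each. Hoxd12 was so on FI 2, FI 3 and crypt 3 but on no iFIPC array, and Hoxd3 on FI 1 only.

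iISC organoids were set against crypt organoids, their counterpart from adult intestine. Hoxd9 was higher in iISC organoids, at least 6.26-fold (fitted log2 change 4.27 ± 0.42, adjusted p = 0.00105), with all 3 iISC arrays above all 3 crypt arrays. Of all tested genes, 2.09% were called higher, and 12.9% had every iISC array above every crypt array. The Hoxd9 probe passed the filter through the iISC group alone. Hoxc4 and Hoxc5 differed by 0.05 ± 0.11 and 0.23 ± 0.20 and were not called (intervals -0.21 to 0.30 and -0.22 to 0.67). The other 5 genes were not tested, since neither group was well above background throughout. The Hoxd9 call is tied to the homeobox probe: the second probe was at background in both groups. With the slide as a block the change was 3.91 (adjusted p = 0.078), and with normexp background correction it was 0.98, just under the required size.

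Hoxa9, the HoxA gene of the same paralogue group, was higher in both kinds of induced organoid than in their counterparts, like the homeobox probe of Hoxd9. It was higher in iISC than in crypt organoids by 3.48 ± 0.15 (adjusted p = 3.688e-06) and in iFIPC than in FI organoids by 4.53 ± 0.15 (adjusted p = 8.033e-07). Against MEFs (mean -0.52) Hoxa9 was called higher in iISC (0.96) and iFIPC organoids (1.64), where the Hoxd9 homeobox probe was not called. Hoxa9 was also well above background on all crypt and FI arrays (means -2.53 and -2.89), and that probe was so on none of them. Homeobox sequences of one paralogue group are alike, and whether Hoxa9 transcripts add to the signal of the Hoxd9 homeobox probe was not tested. In the HoxA list, 6 of 10 tested genes were higher in iISC than in crypt organoids, against 2.09% of all tested genes. Among them were Hoxa11 (at least 455-fold) and Hoxa10 (log2 change 8.45 ± 0.95). Both of these, and Hoxa13, passed the filter through the iISC group alone, so the count is not read as an excess.

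iFIPC organoids were set against FI organoids, their counterpart from fetal intestine, and 4 of the 8 genes were higher in iFIPC organoids. All 8 were tested, 6 of them only because the probe was well above background throughout the iFIPC group, and 5.67% of all tested genes were called higher. The 4 called genes are all among those 6, so the count is not read as an excess. Hoxc4 differed by -0.09 ± 0.11 and was not called. Hoxd9, on its homeobox probe, was at least 15.2-fold higher (fitted change 5.89 ± 0.42, adjusted p = 5.998e-05). Hoxc6 was at least 17.2-fold higher, a bound of 9.28-fold without iFIPC 2 and 34.9-fold without iFIPC 3 (5.89 ± 1.22, adjusted p = 0.009235). Hoxc9 was higher by 5.09 ± 0.95 (adjusted p = 0.00645) and Hoxd13 by 4.58 ± 1.26 (adjusted p = 0.02647). In these 4 genes, and in Hoxc5, every iFIPC array lay above every FI array, as in 18.9% of all tested genes. Hoxd4 and Hoxd8 differed by 3.88 ± 1.64 and 3.30 ± 1.29 without being called (adjusted p = 0.1058 and 0.08444). Without FI 1, the FI array with signal for both, they were called at 5.85 and 4.72 (adjusted p = 0.01643 and 0.02096). The Hoxd13 call was lost without FI 2, FI 3 or iFIPC 3 (adjusted p = 0.09295, 0.07144 and 0.0838). The Hoxd9 call is tied to its homeobox probe and the Hoxd13 call to its second probe. The other probe of each gene was not well above background throughout either group.

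With the slide as a block only Hoxd9, on its homeobox probe, stayed called between iFIPC and FI organoids, at 4.75 (adjusted p = 0.03313). The blocked changes were 6.31 for Hoxc6, 3.92 for Hoxc9 and 7.04 for Hoxd13 (adjusted p = 0.2149, 0.2814 and 0.2026). No slide held both groups, so this fit links them through the other groups. On slide 5, which held iFIPC 1 and 3 with crypt 2 and 3, no crypt array was well above background for these 4 genes. There the crypt arrays were at least 6.98-fold lower for Hoxc6, 10.04-fold for Hoxc9, 11.5-fold for Hoxd9 and 18.9-fold for Hoxd13.

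Of the 10 fibroblast markers, 7 were tested between iFIPC and FI organoids, and 2 were higher in iFIPC organoids. Dcn, a collagen-binding proteoglycan, was at least 24.4-fold higher (16.1-fold without iFIPC 2 and 38.3-fold without iFIPC 3) and Twist1, a mesenchymal transcription factor, at least 19.9-fold higher (adjusted p = 9.082e-05 and 0.000476). The summed level of the 10 fibroblast markers was 0.86 in iFIPC 1, 2.09 in iFIPC 2 and -0.62 in iFIPC 3, the order in which 3 of the 8 genes ran (Hoxc4, Hoxc6 and Hoxc9). The other 5 ran in other orders. Hoxc5, Hoxd4 and Hoxd8 were highest in iFIPC 2, like the markers, but lowest in iFIPC 1. Hoxd9, on its homeobox probe, and Hoxd13 were highest in iFIPC 3, with Hoxd9 lowest in iFIPC 1 and Hoxd13 lowest in iFIPC 2. The part of fibroblast-like RNA in the Hox levels was not tested. Of the 7 epithelial markers, 1 was higher in iFIPC than in FI organoids (Krt19, a keratin) and 1 lower: Cdx2, the intestinal homeobox factor, at -2.08 ± 0.22 (adjusted p = 0.0005067).

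Both kinds of induced organoid were then set against each other. Hoxc9 was lower in iISC than in iFIPC organoids, at least 13.8-fold (7.49-fold without iFIPC 2 and 20.1-fold without iFIPC 3; fitted change -6.07 ± 0.95, adjusted p = 0.004131), and Hoxc6 was lower at -4.20 ± 1.21 (adjusted p = 0.04715). That makes 2 of 8 genes, where 4.74% of all tested genes were called lower. Hoxc6, Hoxc9, Hoxd4, Hoxd8 and Hoxd13 were tested only because the probe was well above background throughout the iFIPC group. Both called genes are among these, so the count is not read as an excess. The array iISC 2 lay within the iFIPC range of Hoxc6, and that call was lost when either iISC 1 or iISC 3 was left out (adjusted p = 0.1212 and 0.1379). It was also lost without iFIPC 1 or iFIPC 2. Hoxd4, Hoxd8 and Hoxd13 differed by -3.66 ± 1.64, -2.87 ± 1.29 and -3.28 ± 1.25 without being called, and Hoxd13 was called without iISC 3 at -4.51 (adjusted p = 0.04657). Hoxc5 differed by -0.92 ± 0.20 (adjusted p = 0.01641), just under the required size, and Hoxd9 differed by -0.95 ± 0.42 (adjusted p = 0.1584). On slide 3, which held all iISC arrays and iFIPC 2, every iISC array lay below iFIPC 2 for both genes. With the slide as a block Hoxc9 stayed called (adjusted p = 0.02268) and Hoxc6 did not (0.1227). Of 7 fibroblast markers tested here, 3 were lower in iISC organoids and 1, Pdgfrb, was higher, with Col1a1 at least 29.5-fold lower (16.2-fold without iFIPC 2 and 55.1-fold without iFIPC 3), and their part in the Hox levels was not tested.

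**Figure D4:**
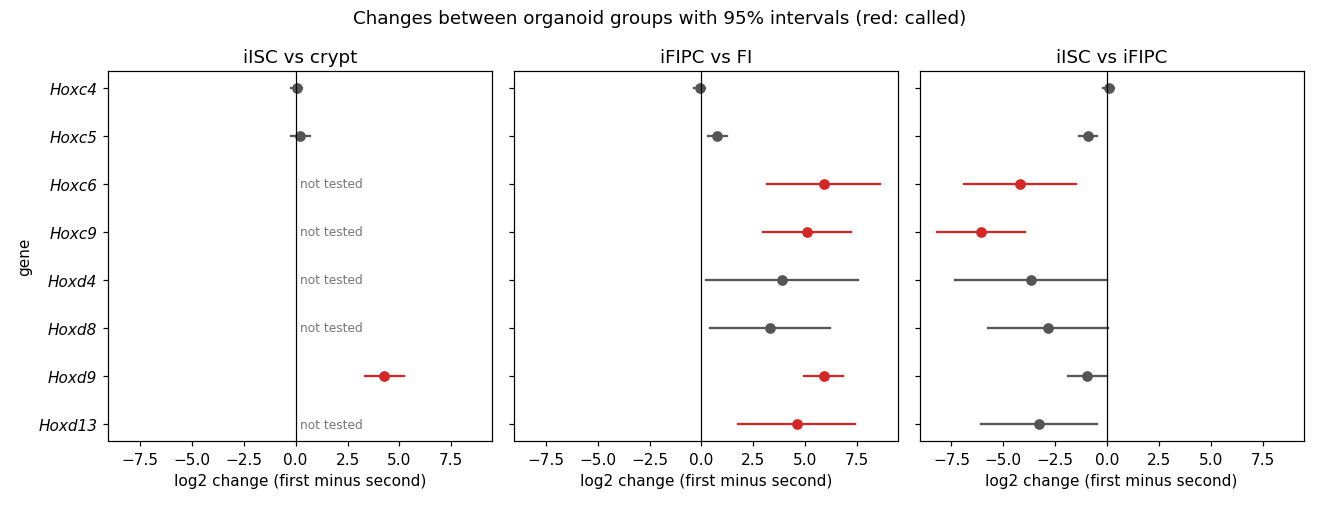
Log2 change of each gene (points) with its 95% interval (lines) from the 12-sample organoid fit, for iISC minus crypt, iFIPC minus FI and iISC minus iFIPC organoids. Red marks called genes, and 5 genes were not tested between iISC and crypt organoids. Hoxc4 lies at 0 within narrow intervals in all 3 panels, while Hoxc6, Hoxc9 and the HoxD genes spread over several log2 units.

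The test of whether the induced and native organoids differ by another amount in the adult than in the fetal pair called none of the 8 genes (limma, 5.2% of all tested genes called in either direction). Without adjustment, p was under 0.05 for 3 genes: Hoxc9 at -4.59 ± 1.35 (adjusted p = 0.0647), Hoxc6 at -4.69 ± 1.72 (0.1143) and Hoxd9 at -1.62 ± 0.60 (0.1161). That Hoxc6 and Hoxc9 were called in the fetal pair and not tested in the adult pair is therefore no shown difference between the pairs. Crypt and FI organoids were compared for Hoxc4 and Hoxc5 alone, and neither was called (limma, unadjusted p = 0.5611 and 0.08439, with 9.03% of all tested genes called).

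Genes of the machinery around Hox proteins were counted beside them. Among 9 cofactors, those lower than in MEFs in each of the 4 organoid groups included Meis1 and Meis3, Meis1 at -6.58 ± 0.62 in iISC and -4.89 ± 0.62 in iFIPC organoids. No cofactor was called by limma between iISC and crypt or between iFIPC and FI organoids (8 tested in each, with 3 and 0 at an unadjusted p under 0.05). Of 14 Polycomb and trithorax genes, 6 were higher than in MEFs in iISC, crypt and FI organoids, where 23.1%, 24.2% and 23.3% of all tested genes were called higher. In iFIPC organoids 4 of the 14 were higher, near the 20.2% of all tested genes. Cbx7, a reader of Polycomb-marked chromatin, was higher by 4.50 ± 0.28 in crypt and 4.21 ± 0.28 in iFIPC organoids, and Ezh2, the methyltransferase of the complex, by 1.78 ± 0.18 and 1.56 ± 0.18. Genes lower in iFIPC than in FI organoids included the subunits Cbx8 and Cbx2, Cbx8 at -1.23 ± 0.24 and Cbx2 at -1.14 ± 0.22 (adjusted p = 0.007402 and 0.007257). None of the 14 was called by limma between iISC and crypt organoids, and 0 had an unadjusted p under 0.05. HoxB genes were called neither between iISC and crypt (3 tested, 1 at an unadjusted p under 0.05) nor between iFIPC and FI organoids (7 tested, 0 at that p).

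Genes most like each member were found from the root mean square difference of centred levels over 17 samples, among 6070 genes whose group means differ by at least 2 (6071 for Hoxc4). Hoxd4 and Hoxd8 were each other's nearest gene, at 0.58. Hoxc6 and Hoxc9 differed by 0.85, and Qk, an RNA-binding protein, was as near to both, at 0.83 for Hoxc6 and 0.87 for Hoxc9. For the homeobox probe of Hoxd9 the nearest were Lgals3 (0.81), Hoxa9 (0.81) and S100a6 (0.83). Hoxd13 had no close match, with Gata3, a transcription factor gene, nearest at 1.13. Hoxc4 was nearest to Myo9b, Shc1 and Dstyk (0.30, 0.30 and 0.31), and Hoxc5 to Mdm2, H2al2a and Rhpn1 (0.36, 0.39 and 0.40). The remaining neighbours were Mmp13 for Hoxc6 (0.91), Basp1 for Hoxc9 (0.96), Slc35e4 and Nexmif for Hoxd4 (0.96 and 0.98), Dram1 and Zfp532 for Hoxd8 (0.63 and 0.66), and Adcy7 and Adgrg6 for Hoxd13 (1.19 and 1.197). These are descriptions over samples that share arrays and groups.

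The MEF samples themselves differed along the HoxD cluster. On the log2 scale the difference MEF 2 and 3 minus MEF 1 was -2.49 for Hoxd13 and -2.38 on its homeobox probe. It was -1.81 for Hoxd12, -1.49 for Hoxd11 and -0.96 for Hoxd10. From Hoxd9 onward the sign turned: Hoxd9 was 0.56 higher in MEF 2 and 3 (0.76 on its second probe), Hoxd8 0.64 higher and Hoxd4 1.47 higher. Among HoxC genes well above background on all 3 MEF arrays, each was higher in MEF 2 and 3: Hoxc8 by 1.81, Hoxc10 by 1.05, Hoxc6 by 1.46, Hoxc9 by 1.45, Hoxc5 by 1.28 and Hoxc4 by 0.07. With 1 sample on each side these differences have no replicate check, and MEF 1 lies on another slide than MEF 2 and 3. The residual spread of the MEF comparisons is pooled over all groups of the fit, and these differences are a part of it.

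**Figure D5:**
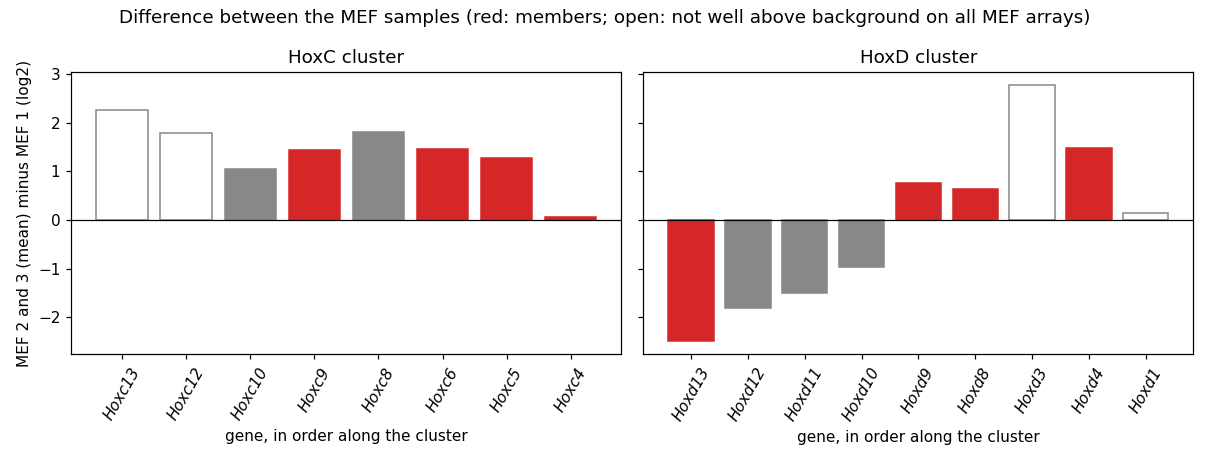
Mean level of MEF 2 and 3 minus the level of MEF 1 (log2) for each HoxC gene (left) and HoxD gene (right), the probe that is brighter in MEFs, in order along the chromosome with the 5′ end at the left; the 8 genes described here are red. Open bars are genes not well above background on all 3 MEF arrays, whose sign is not read. Among the filled bars the 4 HoxD genes at the 5′ end lie below 0 and the other HoxD genes and the HoxC genes above 0.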

How the data were processed

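RNA of 18 samples was measured on Agilent Whole Mouse Genome one-colour arrays. The authors scanned the arrays and ran Agilent Feature Extraction, given as 9.5.1.1 in the submitters' processing notes for all arrays, whereas the file headers give 10.7.1.1 for organoid arrays. The deposited processed signal is a linear intensity from which Agilent's software has subtracted background and spatial trend. The deposited flags for well above background, saturated and outlier spots are 0 or 1. The authors' value table holds the same intensity values after quantile normalization (each column with a median of 59.32) and served as an alternative.

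Outlier spots were left out (62 to 107 per array), spots of a probe were averaged, and 65 probes without a value on some array were not used. Log2 of the deposited signal minus the 75th percentile of gene probes (714.1 to 1484.4 intensity units) gave the level. Probes were named by accession (24844), symbol (6045) or synonym (1810) through the RefSeq table, and 8475 had no name. The brightest probe stood for each of the 8585 genes with several. limma 3.58.1 in R 4.3.3 was fitted to 17 samples for comparisons with MEFs and to 12 organoid samples for the others, and the fit was tested on simulated data. Where no array of the dimmer group was well above background, a lower limit replaced lower values on each of its arrays, namely the lowest level well above background there, and the change is written "at least N-fold". The number of arrays limits the precision.

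The genes, lists, tests and alternatives were chosen with earlier results of these data known, as was the averaging of MEF 2 and 3. All 8 genes are named, with every probe, up to 3 called genes per other list and comparison (some are not reported here), and the 3 most similar genes of each; HoxB levels in single arrays and fibroblast markers named as absent were chosen after their values were seen. MEF 2 and 3 still differed by more than spot noise in 197 repeated probes (chi-square 9.26 per probe, against at least 112.45 in other pairs). Alternatives were normexp correction, the authors' table, no filter, the mean of probes, 18 separate arrays, blocks for slide and replicate number, fits of the compared groups alone and leaving out each array. Replicate numbers were checked for pairing and did not pair the samples.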

Additional observations from a re-analysis of the deposited data

How the results depend on the processing

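Over all alternatives, 968 values of single genes kept their direction and side of the threshold, 34 lost the call, 15 gained it and 30 changed sign. The counts for crypt (8) and FI organoids (8) and iISC organoids (7) against MEFs were the same when any array was left out. The count for iHep cells ran from 1 to 2, for iFIPC organoids against MEFs from 3 to 6, for iISC against crypt from 1 to 1, for iFIPC against FI from 3 to 6, for iISC against iFIPC from 1 to 3, for crypt against FI from 0 to 0, and for the induced-native difference from 0 to 1. Hoxd9 in iISC against crypt organoids, the 1 call there, was not called (0 genes) with normexp correction, with the slide as a block or with the dimmer probes of Hoxd9 and Hoxd13, the last 2 of which leave few degrees of freedom or 2 tested genes. The 4 calls of iFIPC against FI organoids became 1 with the slide block and 2 with the dimmer probes. The 2 calls of iISC against iFIPC organoids became 1 with normexp, the authors' table, no filter, the slide block and the fit of the compared groups alone. The cause of these moves was not tested.

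Among all genes, the slide block gave 36 calls in place of 465 for iISC against crypt, 121 in place of 1531 for iFIPC against FI, 317 in place of 1281 for crypt against FI, 294 in place of 1098 for iISC against iFIPC and 58 in place of 755 for the induced-native difference. The fit of the compared groups alone gave 636 for iISC against iFIPC. Leaving out 1 array gave as few as 162 calls for iISC against crypt (without crypt 2; 169 without crypt 3 and 292 without iISC 3), 963 for iFIPC against FI (without FI 2), and 747 (without crypt 2), 801 (without crypt 3) and 826 (without FI 2) for crypt against FI. For the induced-native difference it gave 1580 without crypt 1, 328 without crypt 2, 310 without crypt 3, 362 without FI 2 and 442 without FI 1.

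The replicate numbers did not pair the samples: correlations of same-numbered deviations were -0.22, -0.10 and -0.19 for iISC and crypt and -0.002, -0.12 and 0.12 for iFIPC and FI organoids. With the replicate block 1 gene, Hoxc9, was called for the induced-native difference (-4.59, adjusted p = 0.04149), as 1 gene was with the authors' table (Hoxc9) and with the mean of probes (Hoxd9). Hoxd9 in iHep cells was -0.074 with the replicate block and -0.074 with 18 separate arrays.

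Values that changed sign were mostly near 0 and not called. For iHep cells against MEFs, the slide block and slide 1 alone both gave 0.20 for Hoxc5, 0.50 for Hoxc6, 0.12 for Hoxc9 and 0.034 for Hoxd8. With 1 array left out, the change ran from -0.95 to 0.032 for Hoxc6, from -1.33 to 0.47 for Hoxc9 (both highest without iHep 3), from -0.31 (without MEF 1) to 0.75 for Hoxd4 and from -0.32 (without iHep 2) to 0.20 for Hoxd9. Hoxd9 was -0.030 with normexp, -0.10 with the mean of probes, and -0.21 with the dimmer probe, which is also the brighter one in the fit of the compared groups alone (-0.21). For iFIPC organoids against MEFs, Hoxd9 was -0.066 with normexp, -1.43 with the mean of probes (adjusted p = 0.009893) and -3.09 with the dimmer probe (adjusted p = 0.0003026), and ran from -0.046 (without MEF 1) to 0.31 with 1 array left out. Between organoids, Hoxc4 was -0.29 (iISC against crypt) and -0.12 (iISC against iFIPC) with the slide block, and 0.068 for crypt against FI with the authors' table. With 1 array left out it ran from -0.0055 to 0.13 (iISC against crypt) and from -0.0018 to 0.16 (iISC against iFIPC). Hoxc5 was -0.25 for iISC against crypt with the slide block and 0.024 for crypt against FI with normexp.

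Levels under about -6 lie at background, so fitted changes of Hoxc6, Hoxc9, Hoxd4, Hoxd8, Hoxd9 and Hoxd13 against such groups rest wholly or partly on background levels. Only the values written as "at least" are lower bounds, and those against MEFs were not adjusted for the shift of the spike-in controls.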
